A study of Mus musculus with 6 samples.

Results

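The interferon response and MHC class I antigen presentation genes analysed here are 33 named mouse genes, taken by symbol out of 21889 genes in the RefSeq table and grouped by role into 1 sensor, 7 IRF and STAT factors, 15 effectors and 10 MHC class I genes. The rule uses no measured value. Chromatin accessibility around them was measured by ATAC-seq, which tags DNA left accessible to the Tn5 transposase, in urothelial cells sorted as GFP+ and DAPI- from peeled mouse urothelium, the epithelium that lines the urinary tract. The data comprise 3 Stag2-KO libraries, set against 3 Stag2-WT libraries; the STAG2 protein belongs to cohesin, which extrudes chromatin loops. Mice of both genotypes had received TMX in the diet, all 6 libraries were labelled 1 week after TMX induction and batch 1, and 50000 viable GFP+ cells per condition were used. The sources used here do not give the Cre driver, the strain, the age or the number of animals behind a library, and the labels call the libraries biological replicates, so a p-value measures the spread between these libraries only. The study's stated question was how loss of Stag2 changes transcription in quiescent urothelium.

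Interferon genes respond in sequence. Sensors of foreign nucleic acid activate IRF factors that induce interferons, and interferon receptors then activate STAT factors, which with Irf9 bind interferon-stimulated response elements (ISRE) in the promoters of effector genes or, as STAT dimers, bind gamma-activated sites (GAS). MHC class I genes are part of the same response: proteasome subunits cut proteins into peptides, the Tap transporter moves the peptides into the endoplasmic reticulum, and heavy chains paired with B2m carry them to the cell surface. In the urothelium, as in other epithelia, these genes serve defence against infection and the display of antigen to T cells.

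Promoter sequences from RefSeq (GRCm38.p6, the mm10 coordinates) were found for 28 of the 33 genes, as 34 promoters running from 250 bases before to 50 after the start. The ISRE core searched was GAAA, 2 bases of any kind and GAAA again (TTTC, 2 bases and TTTC on the other strand), and the GAS motif was TTC, 3 bases of any kind and GAA, which reads alike on both strands. Overlapping matches were counted, and the motifs may overlap each other. The ISRE core stood in 15 of the 34 promoters (44.1%) against 1131 of all 32851 promoters of the same length (3.44%). The GAS motif stood in 9 of them (26.5%) against 2726 of all promoters (8.3%). The genes with an ISRE core were B2m, Bst2, Cxcl10, Gbp2, Gbp3, H2-T23, Ifih1, Ifit1, Ifit3, Ifitm3, Irf2, Isg15, Oas1a, Rsad2 and Stat2. A match is a description of the letters, not of binding. Of the 5 promoters printed here, Isg15 is shown because its promoter held no ranked interval. Ifih1 and Ifit1 are a sensor and an effector with accessibility differences of opposite sign, neither of which was called. B2m is shown because the only called region lies near it, and Irf1 as an example of a GAS motif. Each runs 5′ to 3′ on the gene's strand, and capitals mark the ISRE core or, in Irf1, the GAS motif.
Isg15 (chr4:156200769-156201068, minus strand): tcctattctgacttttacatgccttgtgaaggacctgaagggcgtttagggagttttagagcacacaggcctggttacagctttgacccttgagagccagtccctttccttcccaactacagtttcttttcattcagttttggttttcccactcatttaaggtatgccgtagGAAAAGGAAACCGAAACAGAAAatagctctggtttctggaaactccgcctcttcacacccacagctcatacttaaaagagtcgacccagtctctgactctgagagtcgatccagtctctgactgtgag
Ifih1 (chr2:62646206-62646505, minus strand): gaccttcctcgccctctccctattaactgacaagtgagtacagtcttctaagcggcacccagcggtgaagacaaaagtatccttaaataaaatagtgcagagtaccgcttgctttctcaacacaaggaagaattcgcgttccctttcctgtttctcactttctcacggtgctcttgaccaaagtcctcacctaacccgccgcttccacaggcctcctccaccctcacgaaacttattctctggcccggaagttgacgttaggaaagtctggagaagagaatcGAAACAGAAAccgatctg
Ifit1 (chr19:34640639-34640938, plus strand): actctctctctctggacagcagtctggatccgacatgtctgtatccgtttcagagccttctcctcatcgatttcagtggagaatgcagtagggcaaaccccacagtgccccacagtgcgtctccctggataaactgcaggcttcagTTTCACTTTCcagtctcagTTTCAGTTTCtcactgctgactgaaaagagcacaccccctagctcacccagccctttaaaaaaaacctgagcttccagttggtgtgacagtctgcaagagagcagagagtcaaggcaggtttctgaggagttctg
B2m (chr2:122147437-122147736, plus strand): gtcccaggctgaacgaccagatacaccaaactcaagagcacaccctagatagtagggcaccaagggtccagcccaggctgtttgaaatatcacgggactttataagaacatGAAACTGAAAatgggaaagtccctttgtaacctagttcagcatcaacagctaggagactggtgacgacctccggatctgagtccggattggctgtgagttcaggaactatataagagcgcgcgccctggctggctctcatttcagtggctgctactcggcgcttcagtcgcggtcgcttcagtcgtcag
Irf1 (chr11:53769764-53770063, plus strand): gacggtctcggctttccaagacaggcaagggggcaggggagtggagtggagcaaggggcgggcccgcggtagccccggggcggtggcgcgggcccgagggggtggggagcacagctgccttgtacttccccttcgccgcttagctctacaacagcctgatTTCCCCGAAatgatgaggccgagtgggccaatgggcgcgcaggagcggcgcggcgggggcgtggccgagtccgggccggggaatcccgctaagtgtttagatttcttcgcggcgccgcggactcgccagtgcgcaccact

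Counted from the start site, the 3 overlapping ISRE cores of Isg15 began at positions -78, -72 and -66, those of Ifit1 at -104 and -85, that of B2m at -139 and that of Ifih1 at 32. The GAS motif of Irf1 began at position -90.

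The deposited data are lists of peaks with a fold (signal value) for each. The lists held 181987 to 299636 peaks in Stag2-KO libraries and 205463 to 213589 in Stag2-WT libraries, which came to 149153 to 260462 and 165214 to 174275 distinct intervals. Read depth is unknown, and lists of unequal length cannot be compared by fold, so the 100000 intervals of highest fold were ranked in each library, with rank 1 the best. A gene's rank is that of its best interval within 1 kb of either end of the gene. The rank gain is the difference between Stag2-KO and Stag2-WT in mean −log2 rank: a gain of 1 means a rank number 2 times smaller in Stag2-KO. Urothelial marker genes had such an interval for 11 to 12 of 13 genes in Stag2-KO libraries and 10 to 11 in Stag2-WT libraries, with Trp63 at none. Of 14 leukocyte markers, 5 to 6 had one in Stag2-KO and 4 to 6 in Stag2-WT, and Ptprc, Cd3g, Cd8a, Cd79a, Adgre1, Lyz2 and Laptm5 had none in any library. Of 12 stroma and vessel markers, 7 to 10 had one in Stag2-KO libraries and 6 to 9 in Stag2-WT libraries. Replicate 2 stood apart in both genotypes: it held the worst of the 3 ranks in both for 14 of 31 measured members (45.2%), against 40.2% of 13053 genes. The Stag2 gene's own end ranks were 16287, 20829 and 26329 in Stag2-KO and 29586, 34076 and 28720 in Stag2-WT (gain 0.57 ± 0.31 SE, n = 3 each, adjusted p = 0.438), and an interval at a gene's end does not check the deletion.

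Most of these genes were open at an end in both genotypes, and none was called changed there. An interval was found in all 6 libraries for 31 of the 33 genes (93.9%), against 59.6% of all genes, and Isg15 and Oas1a had none in any library. With limma's moderated test and Benjamini-Hochberg adjustment over 14321 gene ends, 0 of the 31 members passed an adjusted p of 0.05, while 10 of all gene ends did (0.0698%; 3 higher in Stag2-KO, 0.0209%, and 7 lower, 0.0489%). At an unadjusted p below 0.05 there were 4 members (12.9%), Ifih1, Usp18 and Tap2 with better ranks and Ifit3 with worse ranks in Stag2-KO, a share near the 12.5% of all gene ends (10.4% higher, 2.07% lower). The members' gains were 16 above 0 and 15 below, with a median of 0.01, whereas 68.8% of all gene ends were above 0, with a median of 0.21. Only 6 of the 31 members were above that median. The comparison was not matched for rank: library median ranks were 22093 to 29992 for members and 40266 to 51657 for all genes. For 7 members (Irf2, Usp18, Gbp2, Gbp3, Ifitm3, Tap1 and Tapbp) the best interval was not the same one in all libraries. In bulk samples such as these, fewer cells of a type and less signal per cell cannot be told apart. With ranks taken among gene ends alone, which brings the median of all to 0.01, 7 members were above 0 and 24 below. With intervals ranked by p, 12 were above and 19 below, beside a median of all of 0.29.

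**Figure D1:**
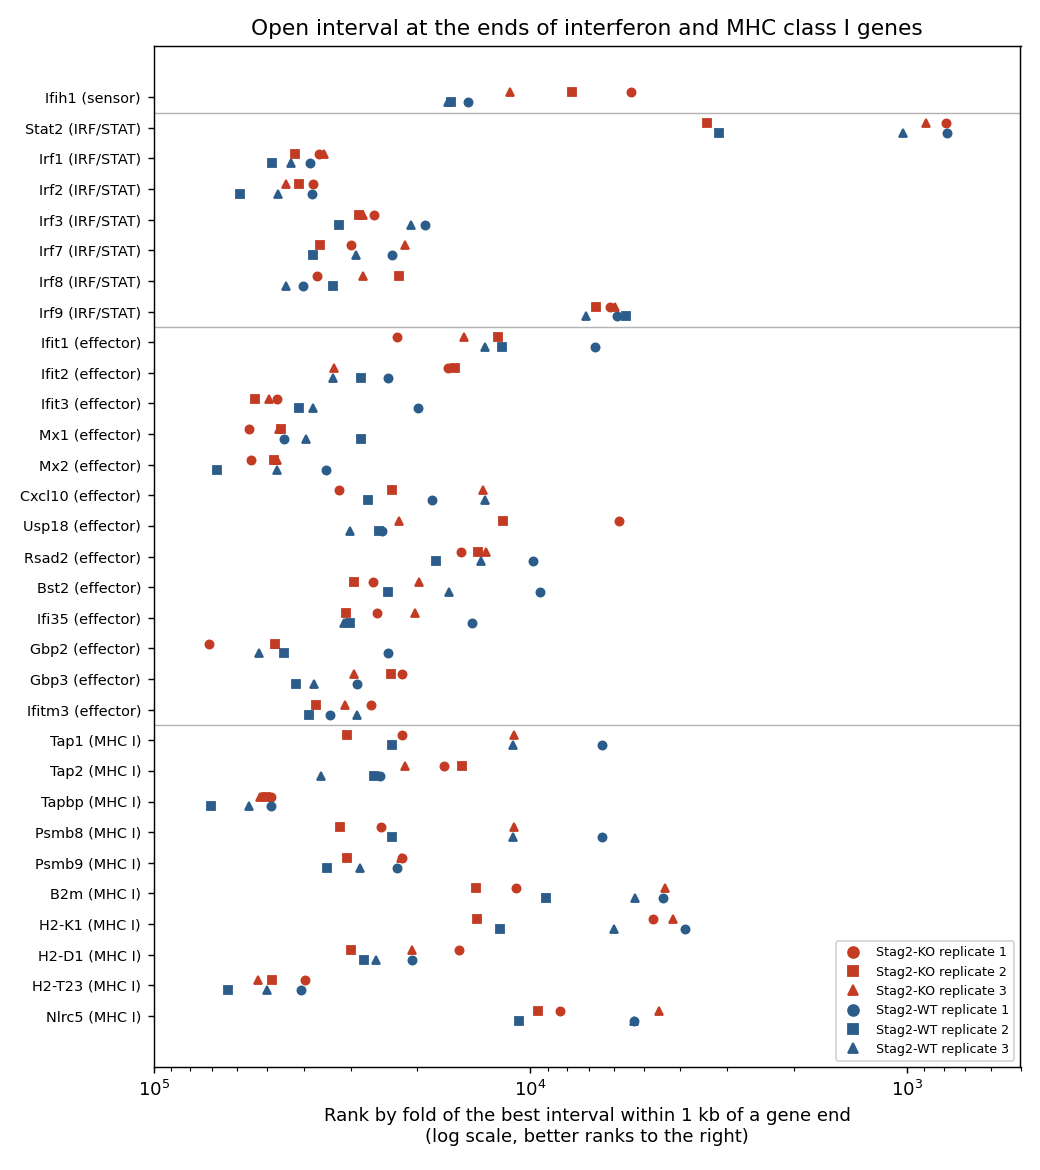
Rank of the best interval within 1 kb of a gene end for the 31 measured genes, on a log axis with better ranks to the right, with Stag2-KO libraries in red and Stag2-WT libraries in blue and 1 marker shape per replicate number. The Stag2-KO points of Ifih1, Usp18 and Tap2 lie to the right of all Stag2-WT points, those of Ifit3 and Mx1 to the left, and the other genes overlap. Of all tested gene ends, 15.0% had every Stag2-KO rank better and 2.04% had every one worse.

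Ifih1, which encodes the cytoplasmic sensor of double-stranded RNA MDA5, had its best end interval at ranks 5416, 7750 and 11334 in Stag2-KO and 14664, 16279 and 16582 in Stag2-WT. The Stag2-KO ranks were all better and did not overlap those of Stag2-WT, an arrangement that 15.0% of all gene ends shared. The gain was 1.02 ± 0.44 (SE, n = 3 each; limma adjusted p = 0.381), and the difference was therefore not called. The interval covered the start, where the ISRE core printed above lies. A different interval upstream of the gene (chr2:62654581-62654863) ran the other way, with ranks 63951, 68753 and 42405 in Stag2-KO and 28785, 35231 and 27674 in Stag2-WT, a gain of -0.91. The SE of that gain was 0.31 and its limma adjusted p 0.275, and 8.17% of all tested regions had every Stag2-KO rank worse. The interval at the Ifih1 start and the one outside the gene thus ran in opposite directions, and neither passed adjustment.

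Among the other sensors and adaptors of the pathway (a list of 14 genes, all measured), 10 gains were above 0 and 4 below, with a median of 0.27; limma called 0 of them, and 3 had an unadjusted p below 0.05, all with better ranks in Stag2-KO. That split (71.4% above 0) is close to the 68.8% of all gene ends, whose median was 0.21. An unadjusted p below 0.05 with better ranks in Stag2-KO was seen at 10.4% of all gene ends. Ikbke, a kinase that phosphorylates Irf3 and Irf7, had ranks of 27331, 21087 and 28509 in Stag2-KO and 50365, 45140 and 40627 in Stag2-WT, a gain of 0.83 ± 0.26 (adjusted p = 0.319). Sting1, the adaptor of cytoplasmic DNA sensing, had a gain of -0.28. Of 11 interferon receptor and JAK-STAT genes, 5 gains were above 0 (45.5%, against 68.8% of all gene ends) and 6 below. Their median was -0.05. Limma called 0, and 1 had an unadjusted p below 0.05, against 12.5% of all gene ends. The kinases Jak2 and Tyk2, which sit on cytokine receptors, had gains of 0.69 and -1.07 (adjusted p = 0.381 and 0.466).

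None of the 7 IRF and STAT factors was called by limma. Their gains ran from -0.23 to 0.46 with a median of 0.04, 5 above 0 and 2 below, 0 had an unadjusted p below 0.05, and their ranks overlapped between genotypes in every case. Stat2, the partner of Irf9 in the complex that binds ISRE sites, had the most prominent interval of all 33 genes, ranked above 99.3% of all genes by its median over libraries. Its ranks were 787, 3393 and 891 in Stag2-KO and 783, 3157 and 1025 in Stag2-WT. Replicate 2 was the worst in both genotypes, and the gain was 0.03 ± 0.94. Irf9, the DNA-binding subunit of the same complex, was also high and even, at 6134, 6693 and 5964 in Stag2-KO and 5876, 5590 and 7118 in Stag2-WT (gain -0.02 ± 0.52). The intervals of Stat2 and Irf9 are shared with the ends of the neighbouring genes Apof and Rnf31, so neither is the property of 1 gene.

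Irf3 and Irf7, which induce interferon genes once phosphorylated, had end ranks between 19095 and 37685 over both genes and genotypes. Irf3 stood at 26083, 28524 and 27746 in Stag2-KO and 19095, 32196 and 20800 in Stag2-WT, a gain of -0.23 ± 0.31, with its interval shared with Bcl2l12. Irf7 stood at 29982, 36289 and 21553 in Stag2-KO and 23355, 37685 and 28971 in Stag2-WT, a gain of 0.04 ± 0.31. Irf1, an activator of MHC class I genes, and Irf2, its antagonist, were lower in the lists. Irf1 had ranks 36343, 42124 and 35357 in Stag2-KO and 38445, 48428 and 43218 in Stag2-WT (gain 0.19 ± 0.24). Irf2 had ranks 37726, 41021 and 44616 in Stag2-KO and 38103, 58878 and 46898 in Stag2-WT (gain 0.20 ± 0.25), with Stag2-KO replicates 1 and 2 ranked at another interval than the other 4 libraries. At the interval those 4 used the gain was 0.06. Irf8, known for its part in myeloid cell development, had the class's highest gain, with ranks 36946, 22334 and 27858 in Stag2-KO and 40117, 33434 and 44604 in Stag2-WT (0.46 ± 0.28, adjusted p = 0.49). Only the Stag2-KO rank of replicate 1 fell within the Stag2-WT range.

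The 15 effectors split. Of the 13 measured, 4 gains were above 0 and 9 below, with a median of -0.08 and a range of -0.68 to 1.20. Usp18, the protease that removes Isg15 from proteins and dampens interferon receptor signalling, had the highest gain of all members. Its best end interval stood at ranks 5836, 11843 and 22365 in Stag2-KO and 24832, 25246 and 30144 in Stag2-WT. All Stag2-KO ranks were better, as at 15.0% of all gene ends, and they spread widely. The gain of 1.20 ± 0.45 had a limma adjusted p of 0.346. With the best interval anywhere in the span widened by 10 kb, the gain was 0.01 (adjusted p = 0.995). Without Stag2-KO replicate 3 the end gain was 1.68 with an adjusted p of 0.0431, in a fit that also called 574 gene ends higher and 121 lower. The Stag2-WT rank of replicate 1 came from the other end of the gene, and at the end used by the other 5 libraries it was 25065.

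The Ifit genes encode RNA-binding proteins that block translation of viral RNA, and they lie side by side on chromosome 19. Ifit1 had ranks 22648, 12196 and 15034 in Stag2-KO and 6737, 11879 and 13202 in Stag2-WT (gain -0.66 ± 0.44, adjusted p = 0.528). Ifit3 had ranks 47181, 53893 and 49485 in Stag2-KO and 19922, 41073 and 37773 in Stag2-WT (gain -0.68 ± 0.29, adjusted p = 0.381). The Ifit3 ranks were worse in every Stag2-KO library than in any Stag2-WT library, which held for 2.04% of all gene ends, and the gain was -0.35 without Stag2-WT replicate 1. Ifit2 had ranks 16509, 15809 and 33286 in Stag2-KO and 23873, 28215 and 33400 in Stag2-WT (gain 0.46 ± 0.35), so neighbouring genes of 1 family did not share a sign. Ifit3b, a near-identical copy of Ifit3 and one of the other interferon-stimulated genes, had a gain of -0.78 ± 0.25 (adjusted p = 0.319). How reads that map to more than 1 place were treated is not given in the sources used here, so values of the Ifit, Oas, Gbp, Mx and H2 copies are uncertain.

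Mx1 and Mx2 encode dynamin-like GTPases that trap viral particles in species where they are intact, and RefSeq lists both as transcribed pseudogenes in this assembly. Mx1 had ranks 55762, 45847 and 46424 in Stag2-KO and 45117, 28245 and 39535 in Stag2-WT. Every Stag2-KO rank was worse, as at 2.04% of all gene ends, and the gain was -0.41 ± 0.26 (limma adjusted p = 0.496). Inside Mx1, a separate region (chr16:97461255-97461624) had ranks 22600, 22206 and 17641 in Stag2-KO and 11577, 10675 and 6877 in Stag2-WT, a gain of -1.13 ± 0.40 (adjusted p = 0.28). Both places were thus worse ranked in each Stag2-KO library, without passing the test. A region outside the gene (chr16:97442949-97443294), nearest to the end of Bace2, ran the other way. Its ranks were 45404, 52252 and 69035 in Stag2-KO and 96907, 76727 and 90602 in Stag2-WT. The gain there was 0.68 ± 0.22 (limma adjusted p = 0.271). Of all tested regions, 8.17% had every Stag2-KO rank worse and 11.4% had every one better. Mx2 had a gain of -0.06 ± 0.26 and ranks that overlapped.

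The other effectors had overlapping ranks. Bst2, which tethers budding virus to the cell surface, stood at 26237, 29462 and 19771 in Stag2-KO and 9449, 23922 and 16418 in Stag2-WT (gain -0.68 ± 0.39). Gbp2 and Gbp3, GTPases that attack pathogen vacuoles, had gains of -0.51 ± 0.30 and 0.53 ± 0.29. Gbp3 ranks were 21937, 23430 and 29470 in Stag2-KO and 28913, 41809 and 37486 in Stag2-WT. The Stag2-KO rank of replicate 3 came from another interval, and at the one used by the other 5 libraries it was 39970, with a gain of 0.38. Rsad2, the antiviral radical SAM enzyme viperin, stood at 15273, 13765 and 13156 in Stag2-KO and 9813, 17790 and 13545 in Stag2-WT (gain -0.08 ± 0.40). Cxcl10, a chemokine that attracts T cells, had ranks 32256, 23361 and 13388 in Stag2-KO and 18271, 26982 and 13222 in Stag2-WT (gain -0.21 ± 0.40). Ifi35, a leucine zipper protein induced by interferon, and Ifitm3, which blocks virus entry at endosomes, had gains of -0.08 ± 0.36 and 0.10 ± 0.27. The best Ifitm3 interval lay at the gene's far end from its start.

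Isg15, the ubiquitin-like protein conjugated to targets during the interferon response, and Oas1a, which makes oligoadenylates that activate RNase L, had no ranked end interval in any of the 6 libraries. In the whole lists, the Isg15 promoter printed above overlapped an interval in Stag2-WT replicate 1 alone, at rank 164523. The Oas1a promoter overlapped weak intervals in all 6 libraries, at ranks 172724, 144082 and 147576 in Stag2-KO and 138563, 158431 and 119471 in Stag2-WT. Both promoters carry ISRE cores, and neither held an interval among the best 100000 in either genotype. Around Isg15 the chromatin was not closed throughout. The best ranked region within 10 kb (chr4:156197733-156198243) lay 2575 bp from the Isg15 start. Its ranks overlapped, at 8439, 16657 and 13338 in Stag2-KO and 12767, 19796 and 14104 in Stag2-WT (gain 0.31 ± 0.42). A region 2197 bp from the start, overlapping Perm1 (chr4:156203015-156204233), had ranks 33115, 44258 and 42584 in Stag2-KO and 59823, 57949 and 67337 in Stag2-WT. Every Stag2-KO rank was better at the Perm1 region, as in 11.4% of all tested regions. The gain there was 0.63 ± 0.27 (limma adjusted p = 0.317).

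Of the 32 other interferon-stimulated genes listed, 28 were measured, with 15 gains above 0 (53.6%, against 68.8% of all gene ends) and 13 below. Their median was 0.03. Limma called 0, and 3 had an unadjusted p below 0.05, 2 of them better ranked in Stag2-KO. Over all gene ends, 12.5% had such a p. Parp14, an ADP-ribosyltransferase, had ranks 20671, 25686 and 28471 in Stag2-KO and 67536, 42293 and 42694 in Stag2-WT (gain 1.00 ± 0.28, adjusted p = 0.314). Across 26 measured members with a listed promoter, the 13 with an ISRE core had gains of -0.68 to 1.02 (median -0.08, 6 above 0) and the 13 without had gains of -0.80 to 0.46 (median 0.04, 8 above 0). Of 7 genes listed as suppressors of the response, 3 gains were above 0 (42.9%) and 4 below. Their median was -0.15, and 0 had an unadjusted p below 0.05. The repressor cofactor Irf2bp2 had a gain of 0.40 and the corepressor Trim24 one of -0.79.

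**Figure D2:**
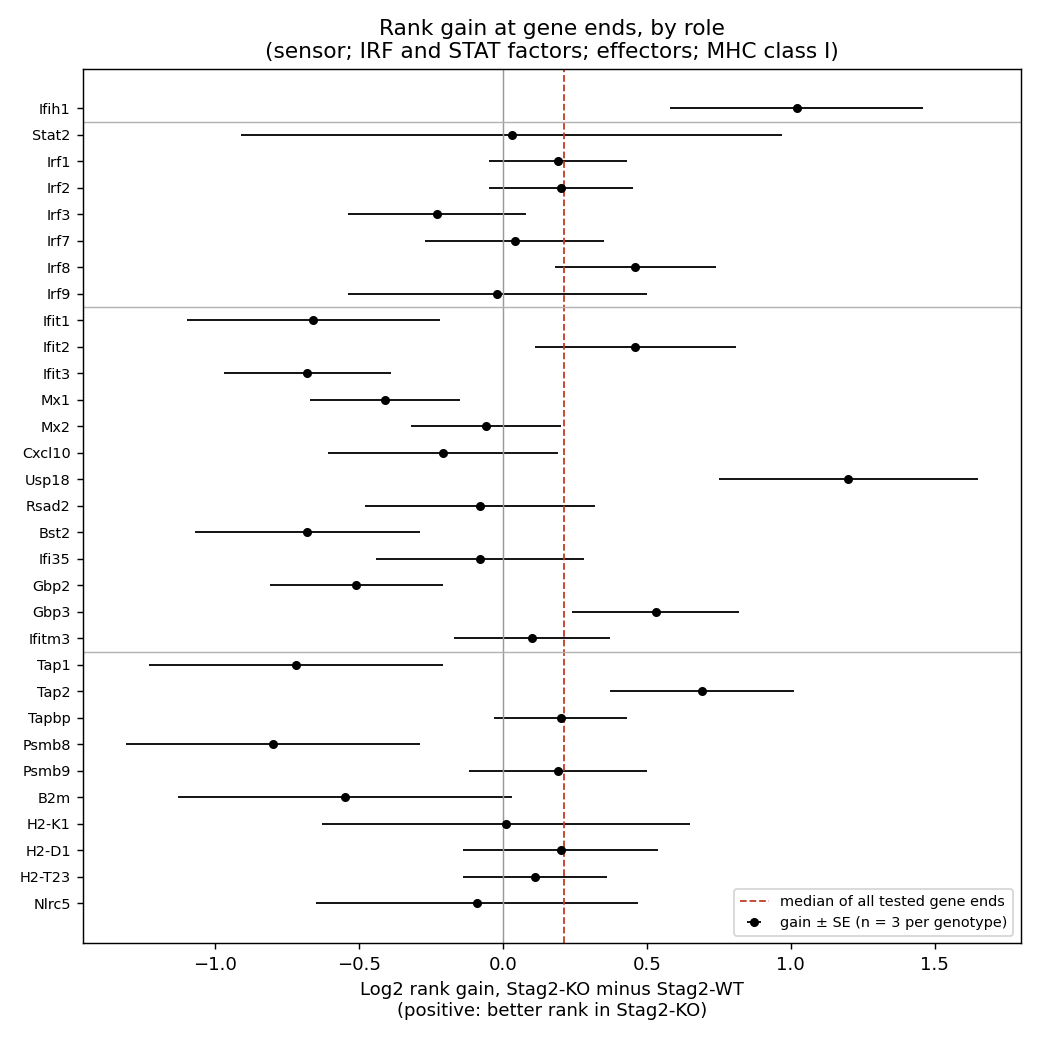
Rank gain at gene ends (log2 scale, Stag2-KO minus Stag2-WT, point ± SE, n = 3 per genotype) by role, with the dashed line at 0.21, the median of all tested gene ends. Gains ran from -0.80 for Psmb8 to 1.20 for Usp18, and 25 of the 31 points lie below the dashed line, which is not matched for rank.

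The 10 MHC class I genes were all measured, with 6 gains above 0, 4 below and a median of 0.06. None was called by limma, 1 (Tap2) had an unadjusted p below 0.05, and the gains of the heavy chain genes were close to 0. H2-K1 was among the most prominent members, with ranks 4718, 13861 and 4170 in Stag2-KO and 3886, 12057 and 5995 in Stag2-WT (gain 0.01 ± 0.64). H2-D1 had ranks 15510, 29992 and 20656 in Stag2-KO and 20670, 27587 and 25655 in Stag2-WT (gain 0.20 ± 0.34). H2-T23, which encodes the non-classical molecule Qa-1, stood lower, at 39753, 48461 and 53007 in Stag2-KO and 40676, 63396 and 50072 in Stag2-WT (gain 0.11 ± 0.25). Nlrc5, the transactivator of MHC class I genes, had ranks 8363, 9544 and 4558 in Stag2-KO and 5317, 10729 and 5309 in Stag2-WT (gain -0.09 ± 0.56). Ranks of all 4 genes overlapped between genotypes.

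Genes of peptide supply lie together on chromosome 17, where Tap1 shares end intervals with Psmb8 and Psmb9. Tap2, 1 chain of the peptide transporter, had ranks 16965, 15228 and 21567 in Stag2-KO and 25138, 25977 and 35854 in Stag2-WT. Every Stag2-KO rank was better, as at 15.0% of all gene ends, and the gain was 0.69 ± 0.32 (limma adjusted p = 0.40). With the best interval in the span widened by 10 kb, which Tap2 shares with Tap1 and Psmb8, the gain was -0.26. Tap1, the other chain, had ranks 21966, 30739 and 11029 in Stag2-KO and 6458, 23260 and 11109 in Stag2-WT (gain -0.72 ± 0.51). Psmb8, a catalytic subunit of the immunoproteasome, gave a gain of -0.80 ± 0.51 at an interval near the Tap1 end as well. It was -0.36 without Stag2-WT replicate 1 and -1.29 without Stag2-WT replicate 2. The region over the Psmb8 start itself (chr17:34198075-34198682) had the opposite sign, with a gain of 0.24 ± 0.27 (limma adjusted p = 0.682). Psmb9, a further such subunit, gave 0.19 ± 0.31. The Tap1 ranks compare different intervals, at the start in Stag2-KO replicates 1 and 2 and at the far end in the other 4 libraries. At the Tap1 start sites alone the gain was 0.19. The Tap1 end gain of -0.72 ran from -1.21 to -0.28 with 1 library left out. Tapbp, or tapasin, which loads peptide onto heavy chains, had ranks 48699, 50379 and 52215 in Stag2-KO and 48907, 70604 and 55682 in Stag2-WT (gain 0.20 ± 0.23), and its intervals are shared with Rgl2 and Zbtb22. Inside Tap1 (chr17:34192879-34193216) a region had ranks 35741, 40750 and 49349 in Stag2-KO, and in Stag2-WT none, 66807 and 81192, a gain of 0.97 ± 0.26 (adjusted p = 0.261). Tap1 thus held a better ranked body region and an end interval with the opposite sign in Stag2-KO.

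B2m, the light chain of every class I molecule, was open at its start in both genotypes, with ranks 10947, 13957 and 4379 in Stag2-KO and 4447, 9064 and 5283 in Stag2-WT (gain -0.55 ± 0.58, adjusted p = 0.71). A separate region 9213 bp from the B2m start (chr2:122137977-122138474), inside the annotated span of Patl2 that also covers B2m, rose in Stag2-KO. Its folds as deposited were 20.04, 35.3 and 20.2 in Stag2-KO and 2.79, 5.02 and 4.93 in Stag2-WT. Its ranks were 12052, 3459 and 9737 in Stag2-KO, while in Stag2-WT replicates 1 and 2 had none among the best 100000 and replicate 3 had 85440. In the whole lists the Stag2-WT ranks were 127764, 104575 and 85440, so a weak interval was present in each Stag2-WT library. The region met the filter of 3 libraries through its Stag2-KO intervals. The gain was 3.68 ± 0.46 (SE, n = 3 each; limma adjusted p = 0.0463), with a missing rank set 1 past the last. It was the only one of 136 tested regions within 10 kb of a member to be called, beside 21 of all 100565 regions (0.0209%; 12 higher, 0.0119%, and 9 lower, 0.00895%). At the length of the shortest list all 6 libraries held an interval there, and the gain was 3.82 (adjusted p = 0.0317). The call was lost at a list length of 50000 (gain 2.76, adjusted p = 0.193) and without Stag2-KO replicate 1 or Stag2-WT replicates 1, 2 or 3 (adjusted p = 0.195, 0.201, 0.0749 and 0.191), while the gain stayed between 3.13 and 4.03 with any 1 library left out. The region is nearer to the B2m start than to any other gene end, and whether it acts on B2m was not measured.

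Between that region and the B2m start, another region (chr2:122141473-122141889) was ranked in Stag2-WT libraries only, at 95849, 74136 and 69007. The whole-list ranks in Stag2-KO were 108458, 116524 and 116767, with folds of 3.79, 3.60 and 3.29 in Stag2-KO and 3.84, 7.87 and 6.33 in Stag2-WT. The gain was -0.34 ± 0.15 (limma adjusted p = 0.334), so this region was not called. Every Stag2-KO rank was worse, as in 8.17% of all tested regions.

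**Figure D3:**
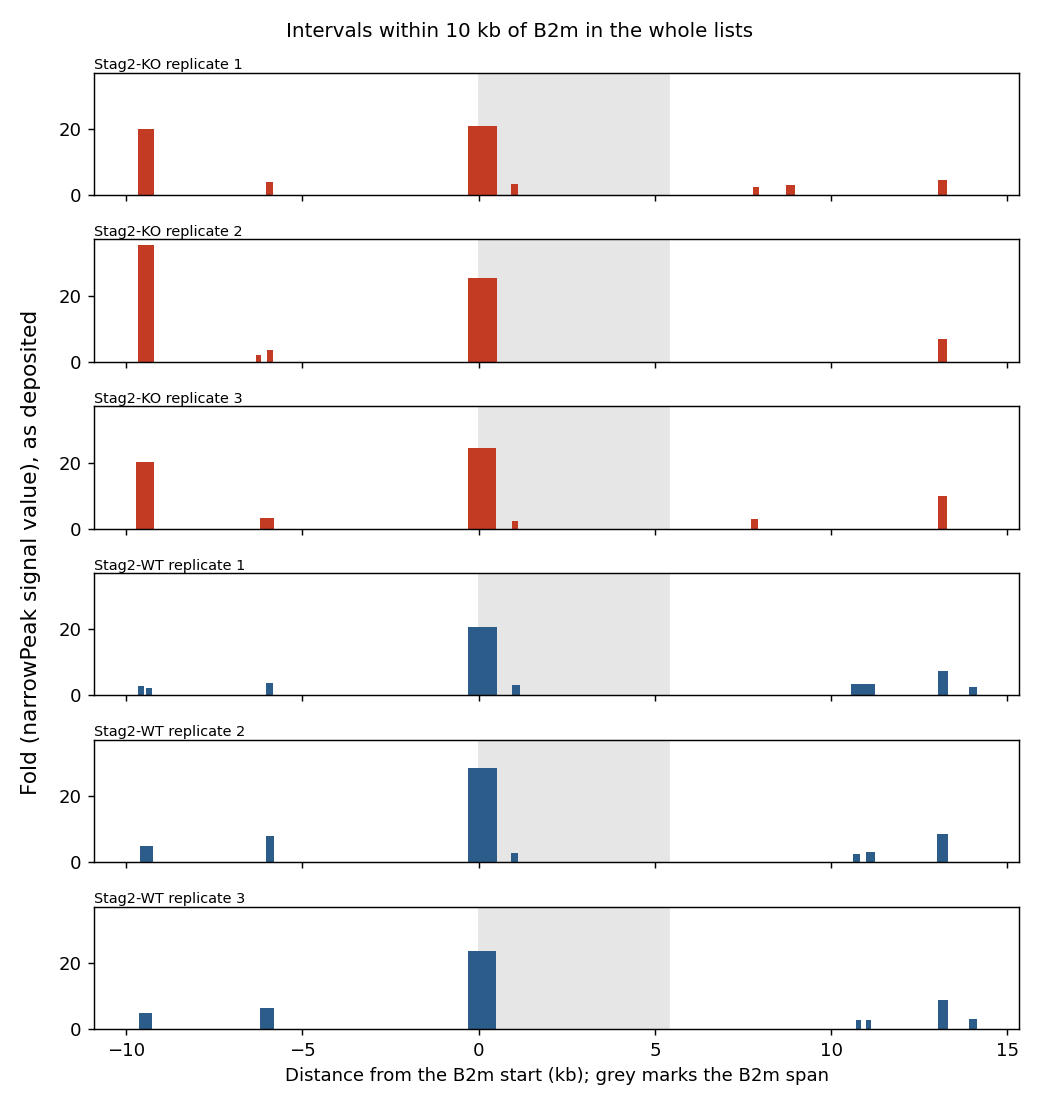
Intervals within 10 kb of B2m in each library's whole list, drawn by distance from the B2m start (kb) with the deposited fold as height and the B2m span in grey. The leftmost interval has folds of 20.04 to 35.3 in the Stag2-KO libraries and 2.79 to 5.02 in the Stag2-WT libraries, while the interval at the start is of similar height in all 6.

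Of 16 other antigen presentation genes listed, 14 were measured, with 3 gains above 0 (21.4%, against 68.8% of all gene ends) and 11 below. Their median was -0.13, and the shares were not matched for rank. Limma called 0, and 1 had an unadjusted p below 0.05, against 12.5% of all gene ends. H2-Aa, an MHC class II chain of antigen-presenting cells, had ranks 55073, 46949 and 32143 in Stag2-KO and 10719, 37624 and 21783 in Stag2-WT (gain -1.08 ± 0.40, adjusted p = 0.342). Leukocyte markers split 3 above and 3 below 0 among the 6 of 14 measured, with a median of 0.0. The macrophage receptor Csf1r had a gain of -0.60 and Cd4 one of 0.33. The part of leukocytes in the result for H2-Aa was not tested. Pdia3, a chaperone of the peptide-loading complex, had a gain of 0.52. The urothelial markers had a median gain of 0.30 over 12 measured genes, with Upk1b, a plaque protein of the apical membrane, at 1.51 ± 0.39 (adjusted p = 0.314) and Krt5 at -0.20. The stroma and vessel markers had a median of 0.26 over 9 measured genes, with Kdr at 0.64 and Col3a1 at -0.67.

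Beyond gene ends, the 33 genes widened by 10 kb held 179 distinct regions, of which 89 had an interval in all 6 libraries (49.7%, against 47.6% of all 138957 regions). Of the 136 with an interval in at least 3 libraries, 1 was held by Stag2-KO libraries alone and 1 by Stag2-WT libraries alone. The share of such regions among all tested regions was not counted, so nothing is read from their number. Among these 136, 68 had a gain above 0 and 68 below, with a median of 0.0 beside 0.02 for all regions. At an unadjusted p below 0.05 there were 12 regions higher and 6 lower in Stag2-KO (13.2% in all), against 14.8% of all regions (6.97% higher, 7.84% lower), a share near the background. All Stag2-KO ranks were better than all Stag2-WT ranks in 23 of the 136 regions, and all were worse in 11. Of all 100565 tested regions, 11447 (11.4%) and 8221 (8.17%) were so arranged. The Irf9 neighbourhood held a region ranked mostly in Stag2-WT, at chr14:55617778-55618254, where Stag2-KO replicate 2 alone had a rank, 98912, and Stag2-WT had 32416, 25354 and 91098. Inside Usp18, a region (chr6:121255734-121256045) was ranked in Stag2-KO libraries only, at 60581, 70553 and 98472, and the whole-list ranks in Stag2-WT were 140764, 123054 and 148755. The gains at the Irf9 and Usp18 regions were -1.24 ± 0.40 and 0.42 ± 0.18 (limma adjusted p = 0.271 and 0.329), and neither was called. These regions were chosen for description after their values were seen.

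The number of the best 100000 intervals around each gene gave a further measure. The median was 4 per member in each library, against 3 for all genes. Usp18 had 6, 6 and 6 intervals in Stag2-KO and 5, 5 and 5 in Stag2-WT, and H2-D1 had 7, 8 and 6 in Stag2-KO and 4, 5 and 5 in Stag2-WT. More intervals in every Stag2-KO library than in any Stag2-WT library was seen for 2.71% of all genes. Ifit2 had 4, 4 and 4 in Stag2-KO and 5, 5 and 5 in Stag2-WT, and Nlrc5 had 6, 7 and 8 in Stag2-KO and 9, 10 and 9 in Stag2-WT. Fewer in every Stag2-KO library was seen for 1.57% of all genes. Irf2 had the most intervals, 23, 19 and 16 in Stag2-KO and 14, 17 and 18 in Stag2-WT, which overlap. Oas1a had 1 interval in Stag2-KO replicate 2 and none in the other 5 libraries.

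**Figure D4:**
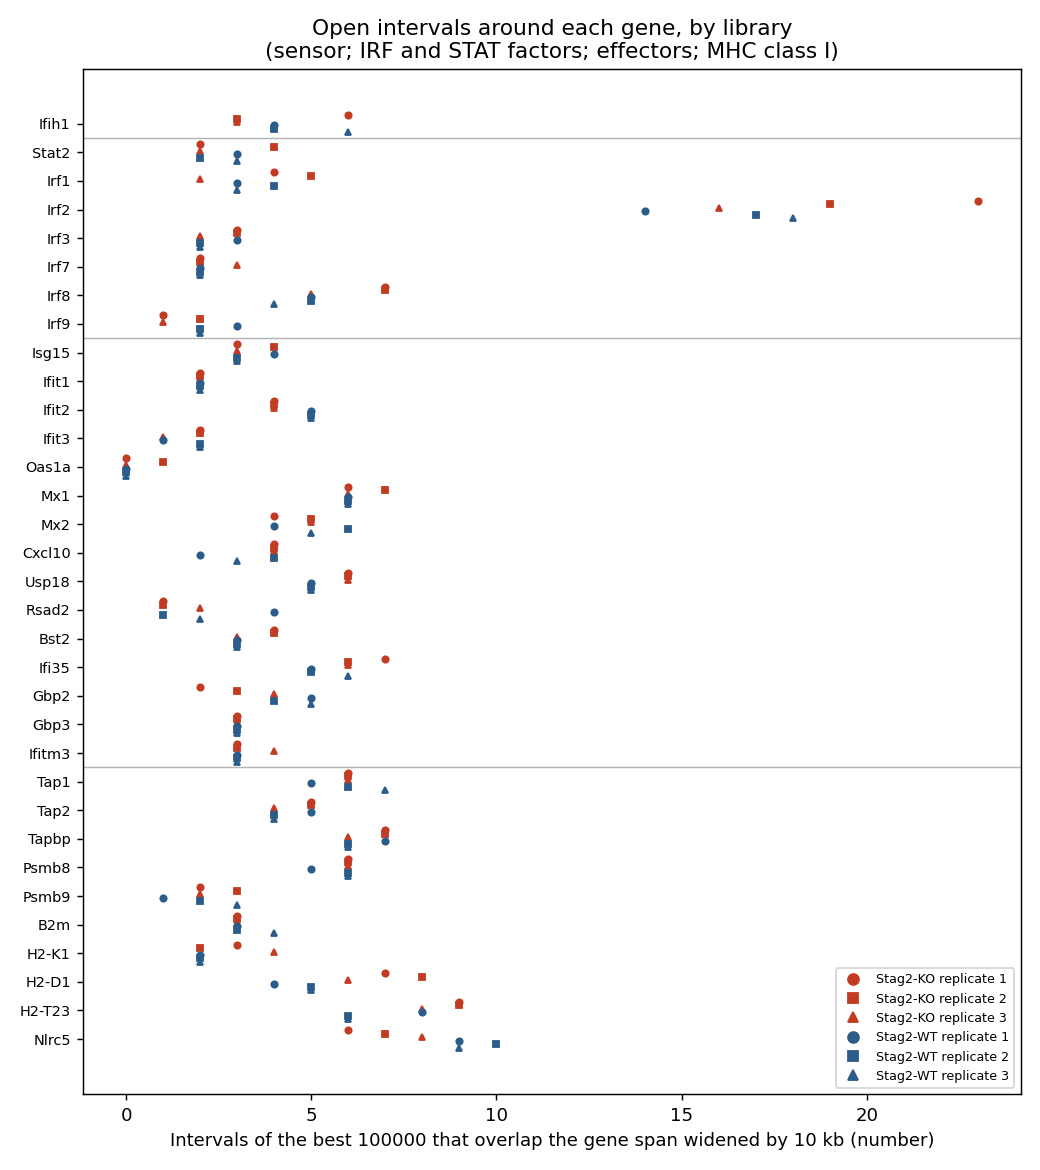
Number of the best 100000 intervals that overlap each gene span widened by 10 kb, for all 33 genes by role, with Stag2-KO libraries in red and Stag2-WT libraries in blue. Irf2 has the most (14 to 23) and Oas1a the fewest (0 to 1), and 4 genes, Usp18, H2-D1, Ifit2 and Nlrc5, have counts that do not overlap between genotypes.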

How the data were processed

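ATAC-seq peak lists of 3 Stag2-KO and 3 Stag2-WT libraries were analysed. Per the submitters' processing notes the build was mm10 and DiffBind was used. The sources used here do not name the peak caller or aligner, nor how reads with several matches were handled. The authors deposited 1 list per library, with a fold (signal value, a ratio) and −log10 p for each peak. The list of Stag2-KO replicate 1 started at a −log10 p of 3.00 and the others at 2.00. Between 13.1% and 19.9% of a list's peaks repeated an interval. The deposited score column was not used.

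Repeated intervals were collapsed to their best deposited fold and p, and the 100000 of highest fold were ranked. The fold at rank 100000 was 3.93 to 4.47 in Stag2-KO and 3.65 to 5.30 in Stag2-WT. Gene spans and starts came from RefSeq GRCm38.p6: protein-coding genes plus Mx1 and Mx2. Genes or merged regions (1 bp overlap) with an interval in at least 3 of 6 libraries were fitted on −log2 rank with limma 3.58.1 (R 4.3.3, trend), a missing interval taking the rank after the last, with Benjamini-Hochberg adjustment over all gene ends or all regions. Scripts ran in Python 3.11.15 and were tested on simulated data. The simulated shifts were larger than any member's end gain, so that test does not show whether gains of the members' size would be called.

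Named genes are the 33 members, Stag2 and, of each further list, the gene of smallest p in each direction; some listed genes are not reported here. Members and lists were chosen with earlier results of these data known. Same-numbered libraries deviated from their group means together (correlations 0.177, 0.721 and 0.460 for replicates 1, 2 and 3), each over 0.1. Stag2-KO replicate 3 correlated more with Stag2-WT replicate 1 (0.504) than with its own number, and the labels state no shared animal or day. The reported gains, SEs and p-values come from fits without a pairing term. Replicate number entered only in the replicate block alternative. Alternatives changed the list length, ranking value, window, filter, gene set ranked and replicate block, and left out each library.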

Additional observations from a re-analysis of the deposited data

How the results depend on the processing

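No member gene end was called under any alternative that kept all 6 libraries, and the replicate block changed no member's call (B2m region 3.68, adjusted p 0.0455). Of 552 member gains recomputed, 499 kept direction and side, 52 turned sign and 1 gained a call. The cause was not tested for any of the changes given here.

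Gains that turned sign were, with linear ranks (in units of 1000 ranks), Stat2 -0.04 and H2-K1 -0.27. With ranks among gene ends they were Irf1 -0.02, Irf2 -0.01, Irf7 -0.11, Ifitm3 -0.10, Tapbp -0.01, Psmb9 -0.01, H2-K1 -0.12, H2-D1 -0.02 and H2-T23 -0.06. By p they were Irf7 -0.20, Ifitm3 -0.14, Tap1 0.07, H2-K1 -0.42, H2-D1 -0.12 and H2-T23 -0.19. Within 500 bp they were Mx2 0.11 and H2-T23 -0.24. With the best interval within 10 kb of the span they were Cxcl10 0.11, Tap2 -0.26, Tapbp -0.05, B2m 0.12 and H2-T23 -0.13. At start sites, added after the data were seen, they were Ifitm3 -0.23 and Tap1 0.19.

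With 1 library left out, members called higher ranged from 0 to 1 and gene ends of all genes from 0 to 574 higher and 0 to 137 lower (574 and 121 without Stag2-KO replicate 3, 238 and 137 without Stag2-WT replicate 2). Median gains ran from -0.06 to 0.27 for IRF and STAT factors and from -0.28 to 0.09 for effectors. Sign-changing ranges were Stat2 -0.58 to 0.70, Irf7 -0.16 to 0.21, Irf9 -0.13 to 0.05, Mx2 -0.31 to 0.18, Cxcl10 -0.56 to 0.08, Rsad2 -0.28 to 0.15, Ifi35 -0.28 to 0.28, Ifitm3 -0.02 to 0.23, H2-K1 -0.43 to 0.56, H2-D1 -0.03 to 0.45, H2-T23 -0.05 to 0.27 and Nlrc5 -0.43 to 0.12. Members that kept their sign but moved included Usp18 at 0.71 to 1.68, Ifit1 at -0.86 to -0.36, Ifit2 at 0.27 to 0.81, Ifit3 at -0.87 to -0.35, Mx1 at -0.56 to -0.22, Bst2 at -0.99 to -0.32, Gbp2 at -0.73 to -0.16, Tap1 at -1.21 to -0.28, Psmb8 at -1.29 to -0.36 and B2m at -1.05 to -0.21. Member regions called higher ranged from 0 to 2 (the added one, near Cxcl10, at 0.72 and adjusted p 0.0497 without Stag2-KO replicate 3), all regions from 1 to 835 higher and 1 to 1578 lower, members with more intervals from 2 to 6 and the B2m region from 3.13 to 4.03.

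Of all gene ends, 3 were called higher and 7 lower; the calls were 5 higher by p, 0 higher and 0 lower with ranks among gene ends, with no filter and with the best interval within 10 kb, 0 and 3 with linear ranks, and 2 lower at start sites. Median gain by p was 0.60 for the sensor and -0.44 for effectors. Of all regions, 12 were higher and 9 lower; these counts were 2 and 2 at a list length of 50000, 31 and 21 by p, 0 and 0 with an interval in all 6 libraries, 24 and 20 at the shortest list's length (added after the data were seen), and 16 lower with the replicate block. Member regions called higher were 0 at 50000 (B2m region 2.76). They were also 0 with an interval in all 6, a filter that leaves out the B2m region before any test. By p the B2m region had 2.01, and at the shortest list's length 3.82. Members with fewer intervals in every Stag2-KO library were 0 at 50000, 1 by p and 1 within 5 kb. Ranks limit all values: read depth is unknown, and the gain of a region with missing ranks depends on the list length.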
